A study of Mus musculus with 37 samples.

Results

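Genes of the astrocytic handling of glutamate were followed in hippocampal astrocytes of mice that did or did not develop post-traumatic epilepsy (PTE). These 8 genes, of the 21975 in the deposited tables, were taken by symbol: the glutamate transporters Slc1a2 and Slc1a3, the glutamine synthetase gene Glul, the glutamine transporters Slc38a3 and Slc38a5, and the glutamate-metabolising enzyme genes Glud1, Got1 and Got2. All 8 passed the filter on low counts in every fit. Astrocytes were separated from the microdissected hippocampus with magnetic beads against ACSA-2, an astrocyte surface antigen, and the contralateral and ipsilateral hippocampus of a mouse gave separate RNA-seq libraries. Sham mice were the controls without an impact, but had a craniectomy and implanted electrodes. PTE+ and PTE- mice had a controlled cortical impact (CCI) over the right parietal cortex at the deeper of the depths used in the study. Electrodes for EEG were implanted in these mice after the impact. PTE+ mice had repeated electrographic seizures in the following months, and PTE- mice did not meet this criterion. All mice were adult wild-type males, named CD31 in the labels and CD1 in the methods, and astrocytes were isolated 4 months after surgery. The contralateral libraries came from 5 sham, 10 PTE- and 5 PTE+ mice, and the ipsilateral libraries from 5 sham, 8 PTE- and 4 PTE+ mice, each mouse giving at most 1 library per hemisphere.

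Glutamate released at synapses is cleared mainly by astrocytes, through the sodium-coupled transporters GLT-1 (Slc1a2) and GLAST (Slc1a3). Inside the astrocyte glutamine synthetase (Glul) joins glutamate with ammonia to form glutamine, which leaves through the system N transporters SNAT3 (Slc38a3) and SNAT5 (Slc38a5) and is taken up by neurons to be turned back into glutamate. Glutamate can instead enter the tricarboxylic acid cycle as 2-oxoglutarate, by way of glutamate dehydrogenase (Glud1) or the cytosolic and mitochondrial aspartate aminotransferases (Got1 and Got2). Loss of glutamine synthetase from astrocytes has been described in the sclerotic hippocampus in temporal lobe epilepsy.

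The positions below are from GENCODE on GRCm38 (mm10), where all 8 genes are protein-coding. Slc1a3 (ENSMUSG00000005360) lies on chromosome 15 from 8634124 to 8710764 on the minus strand, and Glul (ENSMUSG00000026473) on chromosome 1 from 153899944 to 153909723 on the plus strand. Slc1a2 (ENSMUSG00000005089) covers 132.1 kb of chromosome 2, from 102658659 to 102790784, and Slc38a3 (ENSMUSG00000010064) lies on chromosome 9 from 107650634 to 107669530. RefSeq (GRCm38.p6) gave the bases before the start of 7 of the 8 genes, Slc38a3 being the gene without an entry. The 250 bases before the start are shown for Glul, the member with the largest differences between groups relative to its spread, and for Slc1a3, the member with the highest level. They are written 5′ to 3′ on the strand of the gene. Capitals mark matches on either strand to the GC box motif GGGCGG, to the TATA element written as TATAAA, and to the promoter motif CCAAT.
Glul, chr1:153899679-153899928, plus strand: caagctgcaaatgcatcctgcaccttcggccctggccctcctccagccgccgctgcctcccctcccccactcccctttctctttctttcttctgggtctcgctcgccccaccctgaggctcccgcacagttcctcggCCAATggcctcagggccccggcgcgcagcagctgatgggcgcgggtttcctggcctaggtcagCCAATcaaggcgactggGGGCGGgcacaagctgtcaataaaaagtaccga
Slc1a3, chr15:8710808-8711057, minus strand: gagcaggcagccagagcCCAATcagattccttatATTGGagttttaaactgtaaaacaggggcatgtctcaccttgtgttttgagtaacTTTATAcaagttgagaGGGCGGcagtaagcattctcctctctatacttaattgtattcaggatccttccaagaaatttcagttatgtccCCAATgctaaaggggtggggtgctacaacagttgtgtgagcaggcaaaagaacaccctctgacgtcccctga
The Glul window held 1 GC box and 2 CCAAT motifs with a GC content of 64.8%, and the Slc1a3 window held 1 GC box, 1 TATA element and 3 CCAAT motifs with a GC content of 44.8%. Over all 32851 windows of this length, 32.7% held a GC box, 12.4% a TATA element and 33.8% the CCAAT motif. These matches describe the letters only.

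The libraries held between 25371887 and 59846479 counts, and at least 9020 genes were detected in each. The library with the fewest detected genes was the ipsilateral one of PTE- mouse a8_11. It also had the lowest TPM of all 37 libraries for Slc1a3, Glul, Slc38a3, Slc1a2 and Glud1, and the differences that it moved most are also given without it. Summed over 9 astrocyte markers (Aqp4, Gja1, Aldoc and others), the ipsilateral libraries ranged from 12160 to 19180 TPM in sham mice with a median of 16220, from 5754 to 16790 in PTE- mice with a median of 12450, and from 11450 to 14510 in PTE+ mice with a median of 13690. Aldoc weighed most in these sums, with a median of 8472 TPM over the 37 libraries, against 1808 for Gja1, the next highest marker. No astrocyte marker was at the counting limit of 3 counts in any library. Markers of the other cell types were lower, with medians per group of 134.5 to 296.9 TPM over 8 neuronal markers, 142.9 to 243.2 over 7 microglial, 537.7 to 1011 over 6 oligodendrocyte, 29.23 to 43.07 over 2 oligodendrocyte precursor and 196 to 751.7 over 5 endothelial markers. The myelin gene Mog was at the counting limit in 25 of 37 libraries, and the microglial gene Itgam in 17. Over 4 ependymal or choroid plexus markers the medians were 217.3 to 472.4 TPM, but the ipsilateral libraries of PTE- mice a9_12 and a8_11 reached 8750 and 6798, against at most 1435 in any other library. The a8_11 library also had the lowest sum of astrocyte markers, 5754 TPM, and the part of these markers in its low values was not tested. The libraries are bulk samples, in which fewer cells of a type cannot be told apart from less RNA per cell.

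Slc1a3 and Glul were among the most abundant transcripts of these astrocytes. TPM, which is scaled for transcript length, allows levels to be compared between genes. Slc1a3 averaged 2221 ± 694.6 TPM (SD, n = 37) and ranked 38th of 21975 genes, and Glul averaged 1615 ± 314.6 TPM and ranked 53rd. Slc38a3 averaged 582.9 ± 202.5 TPM, Slc1a2 513.5 ± 165.3 TPM and Glud1 251.7 ± 49.54 TPM. The aminotransferase genes and the second glutamine transporter were far lower, with 56.34 ± 25.99 TPM for Got2, 55.05 ± 29.41 TPM for Got1 and 37.32 ± 31.89 TPM for Slc38a5. Some of these steps were the same in all libraries: Glul was above Slc38a3, Slc1a2 above Glud1, and Glud1 above Got2 in 37 of 37. Other neighbours in the order were not separated by their spread. Slc1a3 was above Glul in 32 of 37 libraries, Slc38a3 above Slc1a2 in 24, Got1 above Slc38a5 in 25, and Got2 above Got1 in 19.

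**Figure D1:**
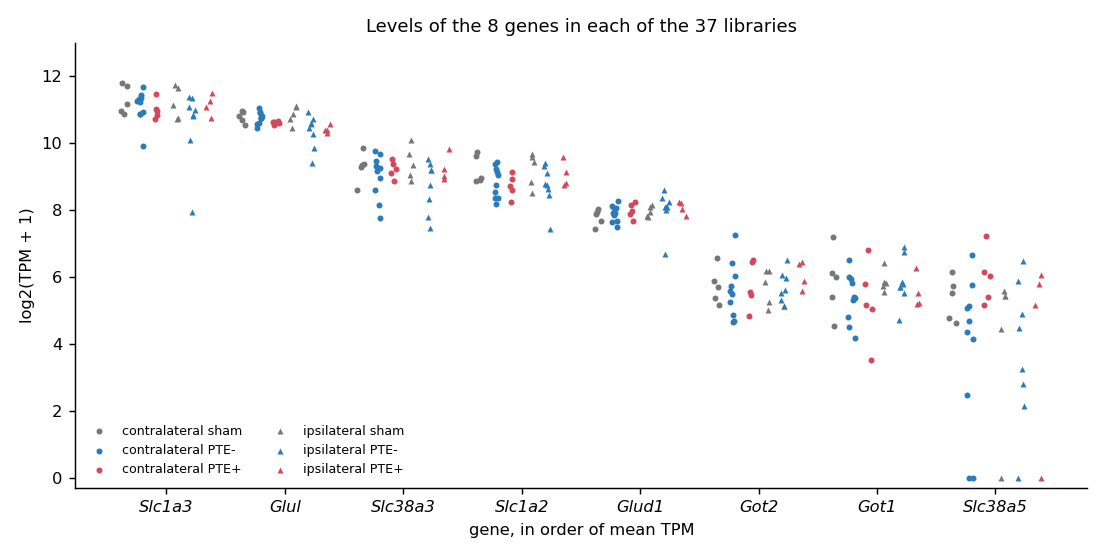
Level of each of the 8 genes, as log2(TPM + 1), in each of the 37 libraries; circles are contralateral and triangles ipsilateral libraries, and colours mark sham, PTE- and PTE+ mice. Slc1a3 and Glul lie highest, the groups overlap for every gene, and Slc38a5 falls to 0 in 5 libraries.

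The abundant members also varied little between the libraries of a group, beside genes of all levels. The SD of log2 CPM within a group was 0.32 for Glud1 and 0.35 for Glul, values at the 0.716 and 1.27 percentiles of the 14387 genes compared, for which the median was 1.38. It was 0.48 for Slc38a3, 0.51 for Slc1a2, 0.56 for Slc1a3, 0.60 for Got2 and 0.76 for Got1. Slc38a5 was the exception, with an SD of 2.12 at the 97.2 percentile.

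Differences between the groups were tested on counts with edgeR's quasi-likelihood test, and genes were called at a Benjamini-Hochberg adjusted p under 0.05 over all genes tested. None of the 8 members was called in any of the 11 comparisons, nor by DESeq2, limma voom or limma on TPM. Calls were rare for all genes. In the contralateral hippocampus edgeR called 0.00683% of the 14642 genes tested between PTE+ and PTE- mice, 0% between PTE- and sham mice and 0% between PTE+ and sham mice. It called 0% of the 14903 ipsilateral genes in each of the 3 comparisons, and 0% of 15731 genes in each of the 5 comparisons of hemispheres. In the contralateral comparisons 0 of the 8 members had an unadjusted p under 0.05, against 2.21% of all genes between PTE+ and PTE-, 1.54% between PTE- and sham, and 1.23% between PTE+ and sham mice. In the ipsilateral hippocampus it was reached by 0 members between PTE+ and PTE- mice (1.75% of all genes), by 2 between PTE- and sham mice (1.58%), and by 1 between PTE+ and sham mice (1.66%). These were Glul and Slc38a3, and Glul, respectively, and all 3 values were lower in the injured mice. The spread between libraries of a group was large for genes in general. The edgeR common biological coefficient of variation was 1.32 for contralateral and 1.40 for ipsilateral libraries. With at most 1 library per mouse and hemisphere, differences between mice cannot be told apart here from those between preparations.

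**Figure D2:**
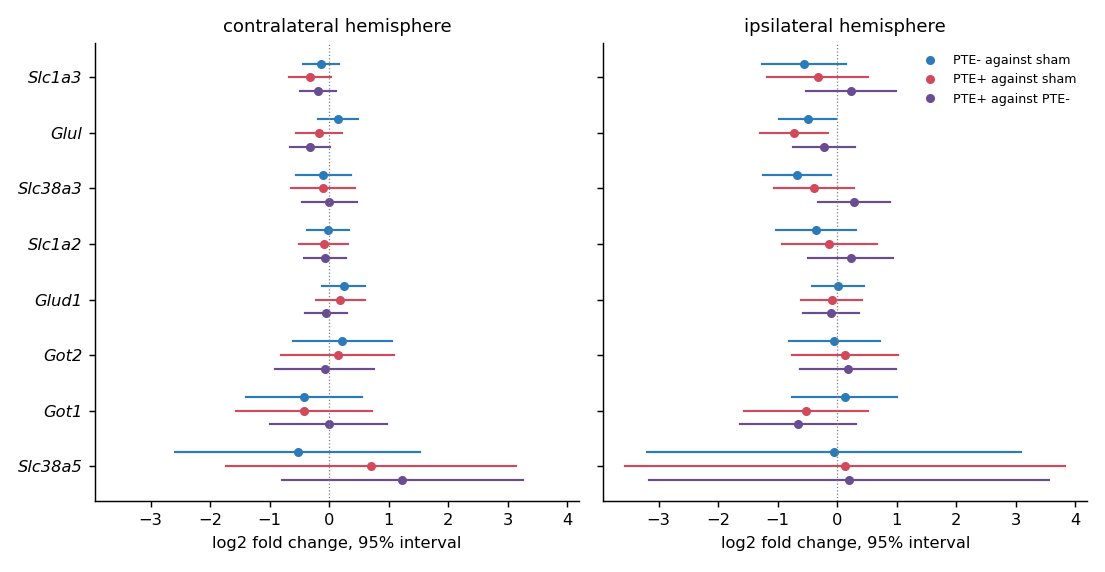
Fitted log2 fold change of each gene (points) with its 95% interval (lines) in the 3 group comparisons, for the contralateral and the ipsilateral hemisphere. The intervals of Glul against sham in both injured groups and of Slc38a3 in PTE- mice lie below 0 in the ipsilateral panel, and the other intervals include 0.

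Glul had the clearest pattern of the 8. In ipsilateral sham mice it measured 2275, 2007, 1709, 1291 and 1090 CPM, where CPM is the count scaled to a common library total by TMM. The 4 ipsilateral PTE+ libraries measured 1184, 1055, 948.4 and 865.3 CPM, and the 8 PTE- libraries ranged from 761.2 to 1972 CPM with a median of 1096. All but 1 of the PTE+ values lay below the lowest sham value, so that these groups overlapped by a single library, while the PTE- values spanned most of the sham range. The fitted log2 fold change of PTE+ against sham mice was -0.72 (standard error 0.27, edgeR adjusted p = 1), and the exact permutation test of log2(CPM + 1) gave p = 0.0397, where the smallest possible value is 0.00794. The log2 fold change of PTE- against sham mice was -0.50 (standard error 0.23, adjusted p = 0.9999), with an exact permutation p of 0.0746. Without mouse a8_11 the latter was -0.40 with an adjusted p of 0.9997 in edgeR, and its unadjusted p was then above 0.05. PTE+ and PTE- mice differed in ipsilateral Glul by -0.23 on the log2 scale, with a 95% interval from -0.74 to 0.29. On the TPM scale the means were 1853 ± 334 in sham (SD, n = 5), 1369 ± 412 in PTE- (n = 8) and 1366 ± 115.2 TPM in PTE+ mice (n = 4). The difference of log2(TPM + 1) between PTE+ and sham mice was -0.42, with an exact permutation p of 0.0318. The exact p-values are not adjusted for the number of tests. Over all members and comparisons, 2 of 88 exact tests on log2(CPM + 1) and 1 of 88 on log2(TPM + 1) had a p under 0.05. The 88 include the tests between the hemispheres of sham and of PTE+ mice, which cannot go below 0.0625 and 0.125. The astrocyte marker sums given above were also lower in the ipsilateral injured groups, and their part in the Glul values was not tested.

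The names of the mice begin with a8 or a9, and the labels do not say what the prefix stands for. Within these prefixes the mean difference of log2(CPM + 1) of ipsilateral Glul between PTE+ and sham mice was -1.02 for a8 (1 against 2 libraries) and -0.44 for a9 (3 against 3, exact permutation p = 0.2). Between PTE- and sham mice it was -0.92 for a8 (3 against 2, exact permutation p = 0.1) and -0.24 for a9 (5 against 3, exact permutation p = 0.464). The direction was the same in both prefixes. At these sizes neither the a8 comparisons nor the a9 comparison of PTE+ with sham mice can reach a p under 0.05.

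In the contralateral hippocampus no Glul difference passed an unadjusted p of 0.05 in edgeR. The sham libraries measured 1702, 1604, 1502, 1424 and 1057 CPM, and the PTE+ libraries 1639, 1304, 1220, 1164 and 1143 CPM. The 10 PTE- libraries ranged from 1012 to 2428 CPM with a median of 1664. The 3 groups overlapped throughout. The log2 fold change was -0.32 for PTE+ against PTE- mice (standard error 0.17, adjusted p = 0.9998 in edgeR; exact permutation p = 0.103), 0.15 for PTE- against sham and -0.17 for PTE+ against sham mice. Without the contralateral library of a8_11, the highest of its group, the first of these was -0.22 and the second 0.0542. The first ranged from -0.45 to -0.15 under the 8 other settings, 3 of which gave it an unadjusted p under 0.05, as did 3 of 15 fits with 1 library left out. The smallest adjusted p of these other settings was 0.446, in limma voom. The second was at 0.30 in limma voom, also with an unadjusted p under 0.05 (adjusted p = 0.9998).

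Slc38a3, a main route of glutamine out of astrocytes, was the other member with a nominal difference. In ipsilateral sham mice it measured 1398, 1285, 1018, 911.5 and 835.2 CPM. The PTE- libraries ranged from 348.7 to 1027 CPM with a median of 720.7, and the PTE+ libraries measured 1114, 837.8, 718.5 and 655.6 CPM. The lowest PTE- values, 348.7, 349.5 and 456.1 CPM, were well below every sham value, but 2 PTE- libraries lay inside the sham range. The log2 fold change of PTE- against sham mice was -0.68 (standard error 0.27, edgeR adjusted p = 0.9999), with an exact permutation p of 0.0342. Without mouse a8_11 it was -0.55 (edgeR adjusted p = 0.9997). Within the name prefixes the difference of log2(CPM + 1) was -0.88 for a8 (3 against 2, exact permutation p = 0.4) and -0.71 for a9 (5 against 3, exact permutation p = 0.0714). On the log2(TPM + 1) scale it was -0.71, with an exact permutation p of 0.0971. PTE+ mice lay between the other groups, at -0.39 against sham (95% interval -1.07 to 0.29) and 0.29 against PTE- mice (-0.32 to 0.89). The contralateral differences of Slc38a3 were close to 0, at -0.102 for PTE- and -0.0992 for PTE+ against sham mice and 0.00255 between them.

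**Figure D3:**
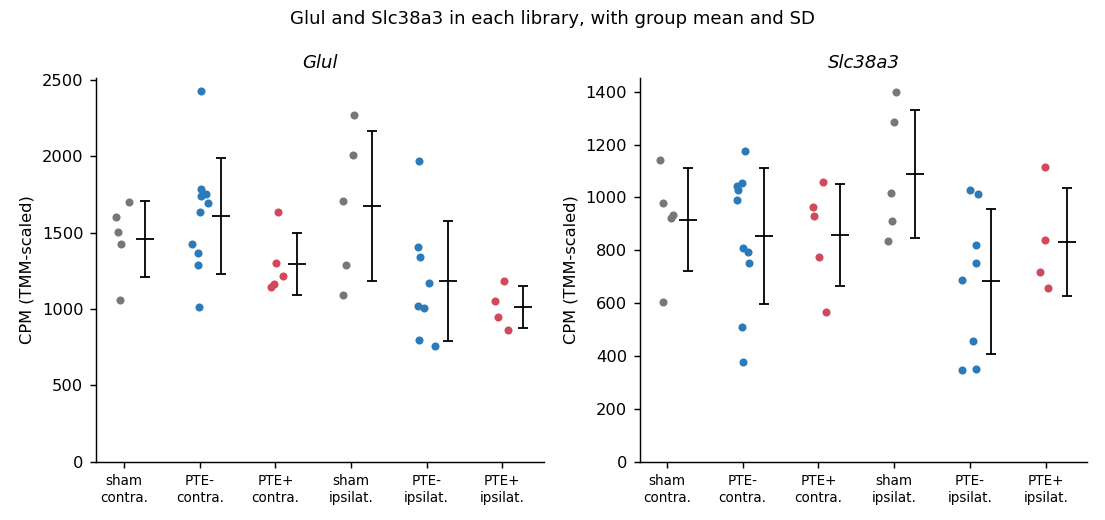
Glul and Slc38a3 in every library as TMM-scaled CPM (points) with the group mean and SD (bars beside the points), for the 3 groups and 2 hemispheres. The ipsilateral PTE+ libraries of Glul lie between 865.3 and 1184 CPM, against 1090 to 2275 CPM in ipsilateral sham mice.

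The uptake genes had no unadjusted p under 0.05 in the edgeR comparisons of the groups over all libraries. Contralateral Slc1a2 averaged 2261 ± 649.4 CPM in sham (SD, n = 5), 2224 ± 415.6 in PTE- (n = 10) and 2121 ± 463.1 CPM in PTE+ mice (n = 5), so the means lay within 1 SD of each other. The 95% interval of its log2 fold change ran from -0.43 to 0.28 between contralateral PTE+ and PTE- mice, and from -0.38 to 0.33 between PTE- and sham mice. Ipsilateral Slc1a2 averaged 2474 ± 634.6 CPM in sham (n = 5), 1928 ± 895 in PTE- (n = 8) and 2253 ± 735 CPM in PTE+ mice (n = 4), and the intervals were wider, from -1.03 to 0.31 for PTE- and from -0.93 to 0.66 for PTE+ against sham mice. The lowest ipsilateral PTE- values were 578 CPM in a8_11 and 881.1 CPM in a8_14. The log2 fold change of ipsilateral PTE- against sham mice was -0.36, and -0.20 without a8_11. With limma voom and library weights contralateral Slc1a2 reached an unadjusted p under 0.05 in PTE+ against PTE- mice, at -0.29 (adjusted p = 0.602), and in PTE- against sham mice, at 0.27 (adjusted p = 0.9998), where edgeR gave -0.0707 and -0.022.

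Slc1a3 measured 9045, 7621, 5457, 5304 and 5027 CPM in contralateral sham mice and 6390, 5333, 5322, 4572 and 4415 CPM in contralateral PTE+ mice. The log2 fold change of PTE+ against sham mice was -0.32 (standard error 0.17, edgeR adjusted p = 0.9999; exact permutation p = 0.206). Both groups overlapped. With 1 library left out this value ranged from -0.41 to -0.17, and 4 of 10 such fits had an unadjusted p under 0.05. Without sham mouse a8_16 it was -0.17. Between contralateral PTE+ and PTE- mice Slc1a3 was at -0.18 in edgeR and at -0.26 in limma voom, where its unadjusted p was under 0.05 (adjusted p = 0.719). In ipsilateral PTE- mice Slc1a3 ranged from 805.6 CPM in a8_11 to 6568 CPM with a median of 4750, against 4260 to 9371 CPM in sham mice with a median of 7051. The fitted log2 fold change was -0.56 (standard error 0.34, edgeR adjusted p = 0.9999; exact permutation p = 0.149), which was -0.37 without a8_11. Ipsilateral PTE+ mice measured 7304, 5380, 4764 and 3989 CPM, a log2 fold change against sham of -0.33 with a 95% interval from -1.18 to 0.51.

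The ratio of the transporter pair was compared within libraries, where it does not depend on scaling. Slc1a3 exceeded Slc1a2 in TPM in all 37 libraries, by a median of 4.20-fold. The ratio ranged from 1.43 in the ipsilateral library of a8_11 to 8.40 in the contralateral library of PTE- mouse a9_14. The difference of log2(CPM + 1), Slc1a2 minus Slc1a3, averaged -1.52 in sham, -1.42 in PTE- and -1.31 in PTE+ contralateral libraries, and -1.44, -1.21 and -1.27 in the ipsilateral ones. Between groups it differed by -0.0615 to 0.23, with exact permutation p of 0.226 to 0.784 over the 6 comparisons. In TPM, 4 of these 6 differences had the opposite sign, so no direction is given for the ratio.

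Slc38a5 was the most variable member and was listed at 0 in 5 libraries: 2 contralateral PTE- and 1 of each ipsilateral group. A count of 0 allows up to 3 counts, and covers counting error only. In contralateral PTE+ mice it measured 148.1, 70.15, 64.91, 41.27 and 34.59 TPM, and in sham mice 69.68, 52.38, 44.91, 26.41 and 23.65 TPM. The PTE- libraries ranged from 0 to 99.1 TPM with a median of 22.25. The log2 fold change of PTE+ against PTE- mice was 1.23 (standard error 0.98, edgeR adjusted p = 0.9998; exact permutation p = 0.0786), with an interval from -0.80 to 3.26. Without PTE+ mouse a8_10 it was 0.80, and the other settings gave 1.11 to 2.86, with an unadjusted p under 0.05 in limma on log2(TPM + 1) alone. All 5 PTE+ values lay above the PTE- median, but 1 PTE- library exceeded all but the highest of them. The sums of the 5 endothelial markers had contralateral medians of 751.7 TPM in PTE+ mice (447.9 to 2122), 455 in PTE- mice (119.5 to 1149) and 325.6 in sham mice (145.4 to 734.6). The contralateral library of a8_10 had both the highest sum, 2122 TPM, and the highest Slc38a5, and the part of these markers in the Slc38a5 values was not tested. The ipsilateral intervals of Slc38a5 spanned more than 3 on the log2 scale in either direction.

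The enzymes that take glutamate into oxidative metabolism gave no nominal difference in edgeR. Glud1 averaged between 470 and 570.2 CPM in the 6 groups, and its log2 fold changes over the 11 comparisons ran from -0.25 to 0.26. Got1 averaged between 52.08 and 81.77 CPM, and its log2 fold changes ran from -0.65, between ipsilateral PTE+ and PTE- mice, to 0.43. Got2 averaged between 78.5 and 95.79 CPM, with log2 fold changes from -0.32 to 0.22. None of these 33 values had an unadjusted p under 0.05 in edgeR. The smallest exact permutation p among them was 0.0794, for ipsilateral Got1 in PTE+ against sham mice, where the difference of log2(CPM + 1) was -0.54. Within the a9 mice contralateral Got1 was lower in PTE- than in sham mice by a difference of -1.04 in log2(CPM + 1) (6 against 3, exact permutation p = 0.0476), while in the a8 mice the difference was 0.63 (4 against 2, exact permutation p = 0.4). In limma voom Got2 had an unadjusted p under 0.05 in PTE+ against PTE- mice, at 0.66 contralaterally (adjusted p = 0.687), where edgeR gave -0.0762, and at 0.50 ipsilaterally (adjusted p = 1), where edgeR gave 0.18. Without a8_11 the ipsilateral Got1 value of -0.65 was -0.36 and the Got2 value of 0.18 was 0.47.

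Over the 8 members as a list, the median log2 fold change was -0.21 in ipsilateral PTE- and -0.23 in ipsilateral PTE+ against sham mice. In each, 6 of 8 were below 0. The all-gene medians were 0.0245 and 0.0016, with 7233 and 7435 of the 14903 genes below 0. Both comparisons use the same sham libraries. In the contralateral hippocampus the medians of the 8 were -0.0619 for PTE- and -0.0959 for PTE+ against sham mice, beside 0.0684 and 0.0316 for all genes. Between PTE+ and PTE- mice the medians were -0.0627 contralaterally and 0.19 ipsilaterally, beside -0.0471 and -0.01.

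The hemispheres were compared in the 17 mice with both libraries, in an edgeR fit that held no term for the mouse. An unadjusted p under 0.05 was reached by 0 members in sham mice (2.05% of all genes), 1 in PTE- mice (4.56%) and 0 in PTE+ mice (2.93%). It was also reached by 1 member for the difference of the hemispheres between PTE- and sham mice (3.13%) and by 0 between PTE+ and PTE- mice (2.94%). The member was Glul in both cases. With the mouse as a replicate block, fewer of all genes reached that level. These were 52 in place of 323 in sham, 315 in place of 717 in PTE- and 120 in place of 461 in PTE+ mice. For the difference of the hemispheres they were 168 in place of 492 (PTE- against sham) and 182 in place of 462 (PTE+ against PTE-). In the 8 PTE- mice the difference of log2(CPM + 1) of Glul, ipsilateral minus contralateral, was -1.67, -0.84, -0.83, -0.79, -0.38, 0.13, 0.21 and 0.22, the lowest value being that of a8_11. In sham mice it was -0.46, 0.0916, 0.24, 0.29 and 0.68, and in PTE+ mice -0.50, -0.31, -0.27 and 0.0246. Glul was thus lower on the ipsilateral side in 5 of 8 PTE-, 1 of 5 sham and 3 of 4 PTE+ mice. The fitted log2 fold change between the hemispheres was -0.47 in PTE- mice (standard error 0.18, edgeR adjusted p = 0.637), and the exact sign-flip permutation test gave p = 0.0781. It was 0.20 in sham and -0.25 in PTE+ mice, where the smallest possible exact p is 0.0625 and 0.125. The hemispheric difference itself differed by -0.67 between PTE- and sham mice (standard error 0.29, edgeR adjusted p = 1; exact permutation p = 0.0738), and by 0.22 between PTE+ and PTE- mice (95% interval -0.41 to 0.85). Without mouse a8_11 the last of these was 0.0597. The other values were then -0.28 in PTE- mice and -0.48 for the difference from sham mice, and neither had an unadjusted p under 0.05.

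**Figure D4:**
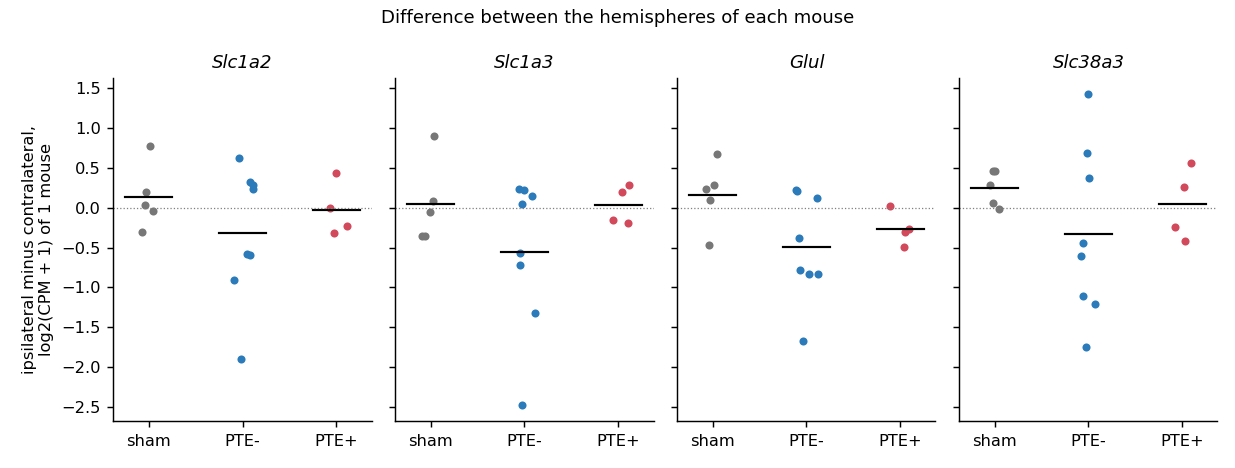
Ipsilateral minus contralateral log2(CPM + 1) of Slc1a2, Slc1a3, Glul and Slc38a3 in each mouse with both libraries (points), with the group mean (line). The PTE- mice spread most, down to -2.48 for Slc1a3 in a8_11, and the groups overlap for every gene.

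The other main members gave wider spreads between the hemispheres of PTE- mice. For Slc1a3 the difference of log2(CPM + 1) was -2.48 in a8_11 and -1.32 in a8_14, and between -0.72 and 0.24 in the other 6 mice. Slc38a3 ranged from -1.75 to 1.43 in PTE- mice, against -0.0156 to 0.46 in sham mice. Their fitted log2 fold changes in PTE- mice were -0.35 for Slc1a3, -0.30 for Slc38a3 and -0.16 for Slc1a2, and none had an unadjusted p under 0.05. Without mouse a8_11 they were -0.22, -0.21 and -0.001556, and without a9_15 Slc38a3 was at -0.52 with an unadjusted p under 0.05 (edgeR adjusted p = 1). Under the replicate block for the mouse, Slc1a3 was at -0.53 with an unadjusted p under 0.05 (adjusted p = 1 in edgeR), so that 2 members reached that level in place of 1.

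Across libraries the members did not vary as 1 unit. Over the 17 ipsilateral libraries Slc1a2 and Slc1a3 had a Spearman correlation of log2(CPM + 1) of 0.79 (Pearson 0.92), which was 0.75 without a8_11. Over the 20 contralateral libraries it was 0.41 (Pearson 0.49). Slc1a3 with Slc38a3 gave 0.69 ipsilaterally and 0.30 contralaterally. Glul with Slc1a3 gave 0.50 and -0.0632, and Glud1 with Got2 -0.75 and -0.24. These are descriptions over libraries that share their scaling and RNA quality. Among 10772 candidate genes, those most like Slc1a3 over the contralateral libraries were Mertk, a phagocytic receptor (Spearman 0.81), Gja1, which encodes connexin 43 (0.77), and Acsl3, a fatty acid ligase (0.76). The same 3 genes gave 0.73, 0.76 and 0.84 over the ipsilateral libraries. Those most like Glul were Ndufa11, a subunit of respiratory complex I (0.84), Asrgl1, an asparaginase (0.83), and Hadh, an enzyme of fatty acid oxidation (0.82), with 0.15, 0.83 and 0.62 ipsilaterally. For Slc1a2 they were Efna4 (0.82), Chkb (0.74) and Pcnt (0.71), with 0.0965, 0.63 and 0.41.

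The wider pathway was covered by 28 further genes of glutamate and glutamine transport and metabolism, of which 27 passed the filter in each hemisphere and 28 in the comparisons of hemispheres. None was called by edgeR in any comparison. An unadjusted p under 0.05 was reached by none of the 27 in the ipsilateral comparisons. Bcat2, the mitochondrial branched-chain aminotransferase, was at -0.96 in contralateral PTE+ against PTE- mice (standard error 0.45, adjusted p = 0.9998 in edgeR) and -1.17 against sham mice (standard error 0.50, adjusted p = 0.9999). Between hemispheres only Ogdh, a subunit of the 2-oxoglutarate dehydrogenase complex, reached an unadjusted p under 0.05, at -0.74 in PTE+ mice (standard error 0.32, adjusted p = 1 in edgeR) and at -0.87 for the hemispheric difference of PTE+ against PTE- mice. The median of the list was -0.20 in contralateral PTE+ against PTE- mice, beside -0.0471 for all genes, and 0.11 in the ipsilateral comparison, beside -0.01. Against ipsilateral sham mice it was -0.15 in PTE- mice, with 16 of 27 below 0, and 0.0487 in PTE+ mice, with 13 of 27 below 0.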

How the data were processed

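RNA of ACSA-2-isolated hippocampal astrocytes was amplified with a SMART-Seq V4 kit and sequenced in 37 libraries. The authors trimmed reads with Trim Galore 0.6.4 and obtained expected counts of each gene with RSEM 1.2.28 and Bowtie2 2.4.1 on mm10, without normalization. The deposited expected counts are whole numbers. The authors also deposited TPM from RSEM. Groups and mice were taken from the labels of the samples, and every library was used. Depth is given in the results. Nothing marks molecules, so counting limits cover counting error only.

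The counts went into edgeR 4.0.16 under R 4.3.3 (filterByExpr with the groups, TMM scaling, quasi-likelihood test), in 1 fit of the 3 groups per hemisphere and 1 fit of the 34 libraries of the 17 mice with both hemispheres. P-values are 2-sided and were adjusted over all genes tested in a comparison. Exact permutation tests used log2(CPM + 1) or log2(TPM + 1), a scale that understates changes of low genes. Alternatives were RLE scaling, no filter, DESeq2 1.42.0, limma 3.58.1 with voom weights or on log2(TPM + 1) or log2(TPM + 0.1), the name prefix as covariate, the compared groups alone, and leaving out each library or mouse. The mouse names in the labels pair the hemispheres. The main fit held no term for the mouse, and a replicate block for the mouse was fitted over all 17 pairs as an alternative. The deviations of paired libraries from their groups had a median correlation of 0.0777, against -0.0192 between different mice of a group. The fit was also run on simulated counts. Their biological coefficient of variation was set well below that of these data, so they do not show what the fit could detect here.

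The 8 genes and all lists were chosen with earlier results of these data known. Named were the 8 members, any gene of the wider list with an adjusted p under 0.05 and up to 2 per comparison with the smallest unadjusted p under 0.05, and the 3 genes most correlated with Slc1a2, Slc1a3 and Glul among those with a mean above 5 TPM. The contralateral values of 1 gene of the wider list that this rule names are not reported here. The most similar genes and correlations used log2(CPM + 1). Single fold changes were taken through the alternatives for Slc1a2, Slc1a3, Glul and Slc38a3, and as counts for the other 4 members.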

Additional observations from a re-analysis of the deposited data

Results flagged for a closer look

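Within each group of 4 to 10 libraries, the highest or lowest value of each member was compared with its neighbour by Dixon's criterion at the 95% level, and 5 of 48 such sets held an outlying value, where chance alone gives about 5% of sets. In the ipsilateral PTE- group, mouse a8_11 was the outlying library for Slc1a3, at 805.6 CPM, and for Glud1, at 284.9 CPM. In the ipsilateral PTE+ group, Slc38a5 was at 0 CPM in a9_19 and Glud1 was at 462.1 CPM in a9_18, the lowest of its group. Slc38a5 was also at 0 CPM in the ipsilateral sham library of a9_9. The difference between hemispheres was tested between groups for 16 pairs of gene and comparison. None had an exact permutation p under 0.05. In edgeR the unadjusted p was under 0.05 for Glul in PTE- against sham mice, and none passed the adjusted threshold.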

How the results depend on the processing

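The count of 0 called members held under every alternative and every left-out library, in all 11 comparisons. Over all genes DESeq2 called 19 to 253 per comparison, against 0 or 1 in edgeR. The smallest adjusted p of any member was 0.316 over 664 values under other settings and 0.547 over 928 values with 1 library or mouse left out. With limma voom the log2 fold change changed sign for contralateral Slc38a3 in PTE+ against PTE- mice (-0.13), for contralateral Slc1a2 (0.27) and Slc1a3 (0.0586) in PTE- against sham mice, for ipsilateral Slc1a2 (-0.13) and Slc1a3 (-0.12) in PTE+ against PTE- mice, and for ipsilateral Slc1a2 in PTE- against sham mice (0.0289). On log2(TPM + 1) and log2(TPM + 0.1) it changed sign for Glul in contralateral PTE- against sham mice (-0.0284 and -0.0285) and ipsilateral PTE+ against PTE- mice (0.0616 and 0.0617). The same held between hemispheres for Slc1a2 (-0.00476 and -0.00482) and Slc1a3 (-0.0879 and -0.088) in sham mice, for Slc1a2 in PTE- mice (0.0368 and 0.0366), and for its hemispheric difference between PTE- and sham mice (0.0415 and 0.0415). The prefix as covariate put contralateral Slc38a3 in PTE+ against PTE- mice at -0.0009204. Slc1a2 between the hemispheres of PTE+ mice was -0.003897 without the filter and -0.0302 under the replicate block for the mouse, which changed no call. The log2(TPM + 1) scale changed the sign of the Slc1a2 to Slc1a3 ratio in contralateral PTE+ against PTE- (-0.0283), PTE- against sham (-0.17) and PTE+ against sham (-0.20), and in ipsilateral PTE+ against sham mice (-0.0888). The cause was not tested. With 1 library left out, that ratio ranged from -0.0388 to 0.21 and from 0.0655 to 0.31 in contralateral PTE+ against PTE- and against sham mice, and the latter had an exact permutation p of 0.0397 without PTE+ mouse a8_17. Ipsilaterally it ranged from -0.23 to 0.0429 and from -0.003404 to 0.27. Leaving out 1 library also changed signs of Slc1a2, which ranged from -0.18 to 0.013 in contralateral PTE+ against PTE-, -0.20 to 0.0926 in PTE+ against sham and -0.11 to 0.16 in PTE- against sham mice, from -0.002819 to 0.39 and -0.36 to 0.0492 in ipsilateral PTE+ against PTE- and against sham mice, and from -0.18 to 0.0887 and -0.0225 to 0.21 between hemispheres in PTE+ and sham mice, and from -0.028 to 0.27 for the hemispheric difference of PTE+ against PTE- mice. Slc1a3 ranged from -0.21 to 0.013 in contralateral PTE- against sham mice and, between hemispheres, from -0.0116 to 0.12 in PTE+ and -0.17 to 0.19 in sham mice. Slc38a3 ranged from -0.0846 to 0.11 and -0.22 to 0.0123 in contralateral PTE+ against PTE- and against sham mice and from -0.0961 to 0.19 between hemispheres of PTE+ mice. The values of Slc38a5, Glud1, Got1 and Got2 changed sign in 56 of 332 values under other settings and in 66 of 464 with a library left out.

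Ipsilateral Glul in PTE+ against sham mice kept its sign throughout, between -0.69 and -0.42 under the other settings and between -0.85 and -0.55 with 1 library left out. An unadjusted p under 0.05 was kept in 6 of 8 and 7 of 9 of these. Ipsilateral Glul in PTE- against sham mice, between -0.50 and -0.36 and between -0.62 and -0.38, kept it in 2 of 8 and 5 of 13, and ipsilateral Slc38a3, between -0.71 and -0.38 and between -0.78 and -0.55, in 6 of 8 and 11 of 13. In the contralateral hippocampus an unadjusted p under 0.05, absent in edgeR, appeared for Glul in PTE+ against PTE- mice in 3 of 8 and 3 of 15, for Slc1a3 in PTE+ against sham mice in 0 of 8 and 4 of 10, and under 1 other setting each for Slc1a2, Slc1a3, Slc38a5 and Got2 in PTE+ against PTE- mice and for Slc1a2 and Glul in PTE- against sham mice. Precision was limited by 4 to 10 mice a group.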
